A study of Mus musculus with 12 samples.

Results

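The tubule injury markers are genes that kidney tubule cells express more strongly when they are damaged. The 10 genes listed were Lcn2, Havcr1, Vcam1, Spp1, Clu, Sox9, Krt8, Krt18, Krt19 and Krt20. They were taken by name, with earlier results of these data known. On the arrays, 9 of them had a probe set with a sole gene symbol, 1 probe set each, among 19938 genes in all. The level of Spp1 was not analysed here, and only its upstream sequence was read.

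As background, the markers belong to several arms of the response of a damaged tubule. Lcn2 encodes lipocalin-2 (NGAL), a secreted protein that binds iron-carrying siderophores and is made by the distal nephron under stress, and Havcr1 encodes KIM-1, a receptor for phosphatidylserine on the apical membrane of injured proximal tubule cells. Vcam1 encodes an adhesion molecule for leukocyte integrins that is also expressed by tubule cells that repair incompletely, Clu a secreted chaperone, and Sox9 a transcription factor of regenerating tubule cells. Krt8 encodes a type II keratin that forms filaments with the type I keratins encoded by Krt18, Krt19 and Krt20, and these simple-epithelial keratins are known to increase in stressed tubules.

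The arrays measured total kidney RNA of female mice in 3 groups of 4. These were KL null mice, which lack klotho, the co-receptor for FGF23, and were given 100 µl saline vehicle; wild-type mice given 500 ng per g body weight of recombinant FGF23; and wild-type mice given the same vehicle, all injected intraperitoneally 1 hour before death, having eaten standard diet for 5 to 8 weeks. Their strain is given as 129/SvEv/C57BL/6 for KL null and C57BL/6 for wild type, although the protocol speaks of wild-type littermates, so genotype and strain label cannot be told apart. The labels number the replicates without saying whether each is a separate mouse, so the tests see the scatter among these samples, part or all of which may be technical.

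Values are log2 RMA signals, on which a difference of 1 is a doubling of signal within a probe set, and levels of different genes were not set against each other. Differences were tested with limma in a fit over all 12 arrays and all 19938 genes, and genes with a Benjamini-Hochberg adjusted p below 0.05 are referred to as called. Every adjusted p below comes from that test unless another fit is named beside it. The groups shared a common estimate of spread per gene, so each SE and interval also carries the scatter of the group not compared. Whether the Kl probe set lies partly outside the deleted part of the gene was not tested. Kl, the targeted gene, was at 9.72 ± 0.07 in KL null and 10.61 ± 0.13 in wild type with vehicle (SD, n = 4 each; adjusted p = 1.75e-05), and Egr1, an early gene of ERK signalling, was at 9.34 ± 0.35 with FGF23 and 6.16 ± 0.17 with vehicle (adjusted p = 1.55e-08). The kidney markers Slc34a1, Umod and Aqp2 lay between 12.64 and 13.02, 12.49 and 12.91, and 9.28 and 9.89 over the 12 arrays. The standard deviation of the log2 values ran from 2.166 to 2.281 over the arrays and was lowest in WT FGF23 replicates 1 and 2 and KL null replicates 1 and 2.

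The first comparison, of KL null with wild type under vehicle, concerns the kidney that lacks klotho. Lcn2, Vcam1, Krt8 and Krt20 rose in KL null, 0 of the 9 markers fell, and Havcr1, Clu, Sox9, Krt18 and Krt19 did not pass. Across all genes 3.58% were called higher in this comparison and 4.44% lower. The median log2 difference of the 9 markers was 0.46, against 0.02 over all genes. The groups did not overlap for Lcn2, Vcam1 and Krt8, as for 6.35% of all genes in the same direction, and 7.44% of genes lay wholly lower, among them 0 markers.

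**Figure D1:**
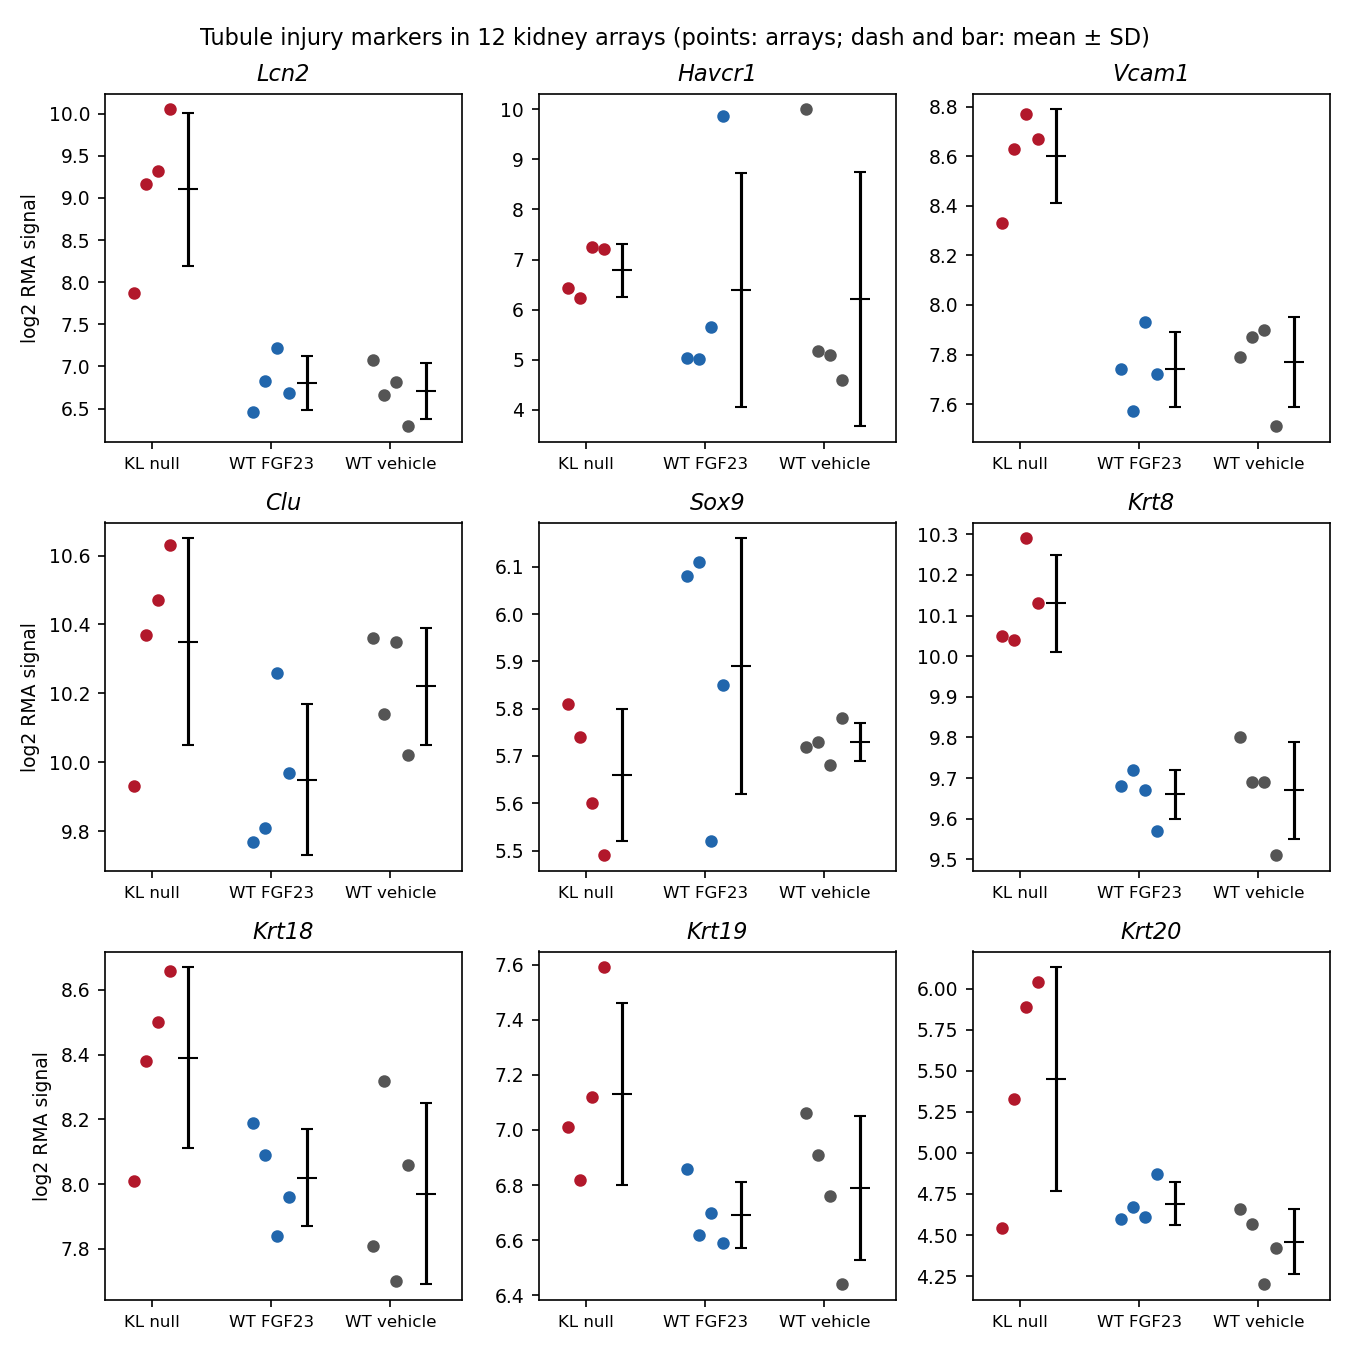
Log2 RMA signal (vertical axis) of each of the 9 measured markers in KL null, WT FGF23 and WT vehicle kidneys, with 1 point per array and the mean ± SD of 4 arrays beside them. KL null arrays lie above all 8 wild-type arrays for Lcn2, Vcam1 and Krt8, and Havcr1 has 1 array near 10 in each wild-type group, WT FGF23 replicate 4 at 9.87 and WT vehicle replicate 1 at 10.

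Lcn2, the secreted siderophore-binding protein, was at 7.87, 9.16, 9.32 and 10.05 in the KL null arrays, replicates 1 to 4, against 7.08, 6.66, 6.82 and 6.29 in the wild-type vehicle arrays. Every KL null array was above every vehicle array, and the spread was wider in KL null (SD 0.91, against 0.33 in vehicle, n = 4 each). The difference was 2.39 on the log2 scale (SE 0.328), a 5.23-fold increase with a 95% interval of 3.22 to 8.5 (adjusted p = 0.000486). It was the 7th largest increase among the 19938 genes. Without KL null replicate 1, the lowest of its group, the difference was 2.80, and over the 12 fits that each left out an array it ran from 2.07 to 2.80 and was called in all 12.

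Vcam1, the leukocyte adhesion molecule, was at 8.33, 8.63, 8.77 and 8.67 in KL null, against 7.79, 7.87, 7.90 and 7.51 in wild type with vehicle. The difference of 0.83 (SE 0.115, adjusted p = 0.000486) corresponds to a 1.78-fold increase with a 95% interval of 1.50 to 2.11. The groups did not overlap, and the SDs were 0.19 in KL null and 0.18 in vehicle (n = 4 each).

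Among the keratins, Krt8, the type II partner, was at 10.05, 10.04, 10.29 and 10.13 in KL null, against 9.80, 9.69, 9.69 and 9.51 in wild type with vehicle. All 4 KL null arrays were above all 4 vehicle arrays, and the difference was 0.46 (SE 0.0858, 1.37-fold, adjusted p = 0.00461). Krt20, which in other epithelia marks differentiated gut and urothelial surface cells, was at 4.54, 5.33, 5.89 and 6.04 in KL null, against 4.66, 4.57, 4.20 and 4.42 in vehicle. KL null replicate 1 lay inside the vehicle range and the other 3 KL null arrays above it. Krt20 lay below the array medians of 6.15 to 6.29, and at low signal RMA values understate fold changes. The difference was 0.99 (SE 0.237, 1.98-fold, 95% interval 1.40 to 2.81, adjusted p = 0.0184), and the call was lost without KL null replicate 3 (adjusted p = 0.0703), KL null replicate 4 (0.0518) or WT vehicle replicate 3 (0.0689), and in the unmoderated linear model (0.086).

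The type I keratin genes Krt18 and Krt19 had positive differences that did not pass. Krt18 was at 8.01, 8.38, 8.50 and 8.66 in KL null, against 7.81, 8.32, 7.70 and 8.06 in vehicle, and the groups overlapped. Its difference was 0.42 with a 95% interval of 0.10 to 0.73 (adjusted p = 0.104), and it passed without KL null replicate 1 (0.54, adjusted p = 0.026) or WT vehicle replicate 2 (0.53, adjusted p = 0.0402). Krt19 was at 7.01, 6.82, 7.12 and 7.59 in KL null, against 7.06, 6.91, 6.76 and 6.44 in vehicle, with a difference of 0.34 and an interval of 0.02 to 0.67 (adjusted p = 0.208). At an unadjusted p below 0.05 both would count, as would 21.3% of all genes.

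The chaperone gene Clu and the regeneration factor Sox9 showed no call in KL null. Clu was at 9.93, 10.37, 10.47 and 10.63 in KL null, against 10.36, 10.14, 10.35 and 10.02 in vehicle. Its difference was 0.13 with an interval of -0.18 to 0.44 (adjusted p = 0.682). Sox9 was at 5.81, 5.74, 5.60 and 5.49 in KL null, against 5.72, 5.73, 5.68 and 5.78 in vehicle, with a difference of -0.07 and an interval of -0.32 to 0.18 (adjusted p = 0.822). These intervals leave room for folds of 0.885 to 1.36 for Clu and 0.802 to 1.14 for Sox9. Sox9 lay below the array medians of 6.15 to 6.29, and at low signal RMA values understate fold changes, so its range may be too narrow.

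**Figure D2:**
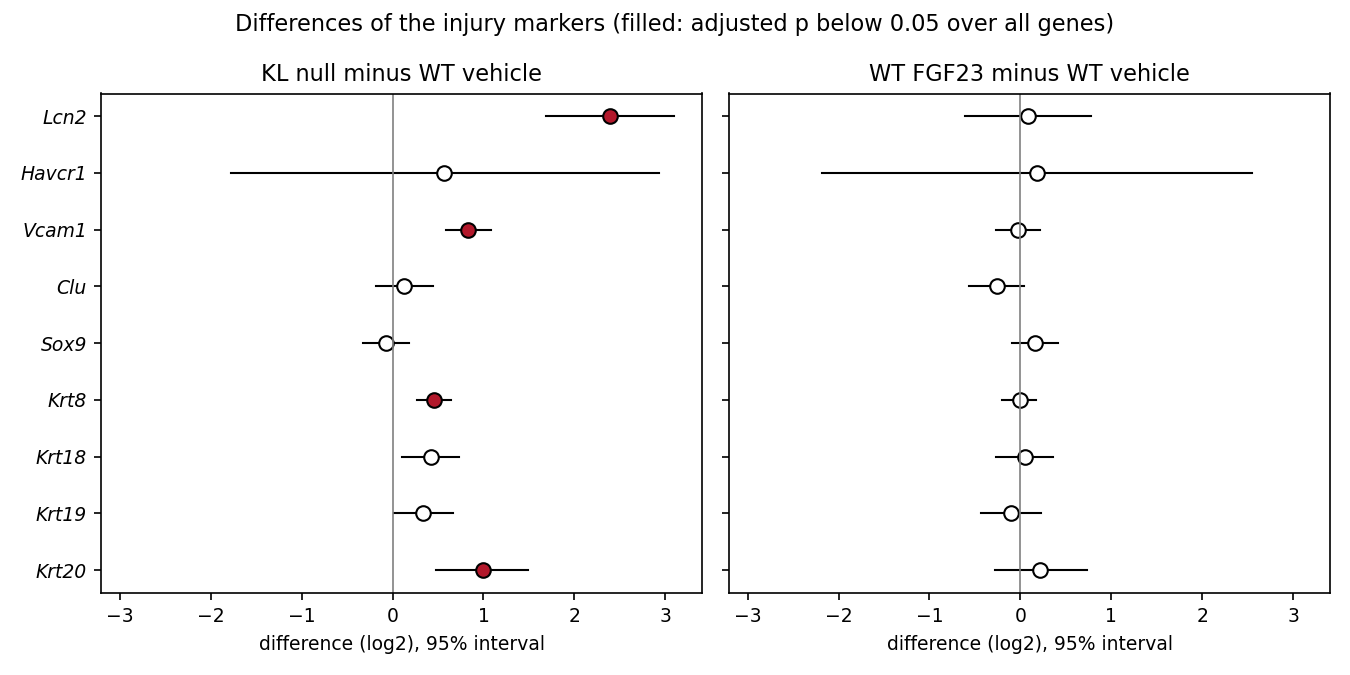
Log2 difference of each marker (horizontal axis) with its 95% interval, for KL null minus WT vehicle on the left and WT FGF23 minus WT vehicle on the right; filled points have an adjusted p below 0.05 over all genes. Lcn2, Vcam1, Krt8 and Krt20 are filled on the left and 0 points on the right, and the interval of Havcr1 spans -1.78 to 2.93 on the left.

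Havcr1, the gene of the phosphatidylserine receptor KIM-1, had 1 array far above the rest in each wild-type group. It was at 6.43, 6.24, 7.26 and 7.22 in KL null, at 5.04, 5.01, 5.66 and 9.87 in wild type with FGF23, and at 10, 5.17, 5.10 and 4.59 in wild type with vehicle. WT FGF23 replicate 4 and WT vehicle replicate 1 were thus above every KL null array, and the other 6 wild-type arrays, at 4.59 to 5.66, were below every KL null array. The lower of the 2 high arrays was 4.21 above the next wild-type array, an 18.5-fold gap. Over all arrays the difference between KL null and vehicle was 0.57 (SE 1.11, 95% interval -1.78 to 2.93, adjusted p = 0.843). Without WT vehicle replicate 1 it was 1.83 (adjusted p = 0.286). With both high arrays left out, which were chosen by their Havcr1 values and so allow no test, KL null was 1.83 above vehicle and 1.55 above FGF23.

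For the other markers the 2 arrays with high Havcr1 did not lie as far from the rest, but WT vehicle replicate 1 was often the highest. Within its group it was the highest for 6 of the 9 markers (Lcn2, Havcr1, Clu, Krt8, Krt19 and Krt20). WT vehicle replicate 1 was the highest of the 8 wild-type arrays for 4 of the 9 markers, among them Havcr1, and WT FGF23 replicate 4 for 1, Krt20, at 4.87, against 4.60 to 4.67 in the other FGF23 arrays. Their Lcn2 values were 6.68 for WT FGF23 replicate 4 and 7.08 for WT vehicle replicate 1, in a wild-type range of 6.29 to 7.22. The highest wild-type value, 7.22, was that of WT FGF23 replicate 3.

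**Figure D3:**
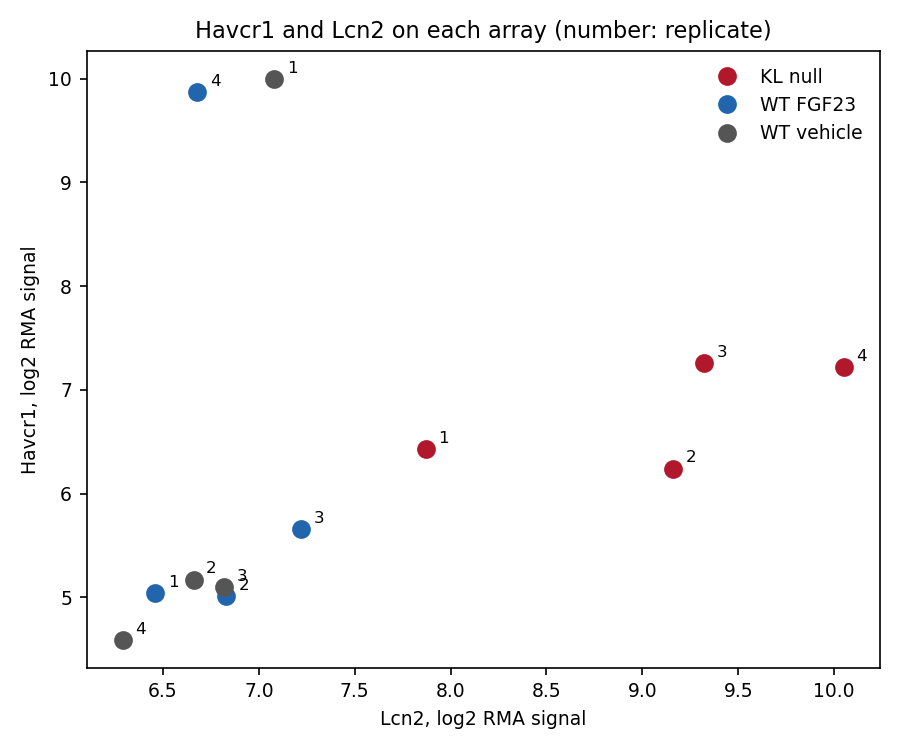
Havcr1 (vertical axis) against Lcn2 (horizontal axis), both as log2 RMA signal, for each of the 12 arrays, coloured by group and numbered by replicate. The 4 KL null arrays lie to the right with Havcr1 between 6.24 and 7.26, and WT FGF23 replicate 4 and WT vehicle replicate 1 lie at the top left.

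The genes whose pattern was most like that of Lcn2 over the 12 arrays, by Pearson's r across arrays, were Clca3a2 (r = 0.977), Xdh (r = 0.973) and Clca3a1 (r = 0.961). Xdh encodes xanthine oxidoreductase and the other 2 belong to the family of chloride channel accessory proteins. Clca3a2 was at 6.01 to 6.97 in KL null and 5.22 to 5.64 in the 8 wild-type arrays, and Clca3a1 at 7.08 to 8.04 and 5.85 to 6.38. For Havcr1 they were Nek3 (r = 0.922), a NIMA-related kinase, Smim3 (r = 0.864) and Rassf7 (r = 0.802). Nek3 ran only from 5.70 to 6.20 over all arrays, with its 2 highest values, 6.20 and 6.15, in WT FGF23 replicate 4 and WT vehicle replicate 1. These coefficients describe the same 12 arrays, in which the KL null group lies apart for Lcn2 and 2 arrays lie apart for Havcr1.

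The array order within KL null was similar for several markers. KL null replicate 1 was the lowest of its group for 5 of the 9 markers (Lcn2, Vcam1, Clu, Krt18 and Krt20) and replicate 4 the highest for 5 (Lcn2, Clu, Krt18, Krt19 and Krt20). Sox9 ran the other way, with replicate 1 highest at 5.81 and replicate 4 lowest at 5.49. KL null replicate 1 also had the lowest standard deviation of its group, 2.195, and the lowest array quality weight, 0.483, and replicate 4 had the highest standard deviation, 2.281; the part of array spread in this order was not tested.

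The upstream sequences of 6 of the 10 genes could be read from RefSeq (GRCm38.p6), with 3 annotated starts for Havcr1 and 2 for Spp1. Those of 3 markers that rose together in KL null are shown, and that of the first Havcr1 start, which held the lone motif match. Each is the 250 bases before the start on the gene's strand: chr2:32387740-32387989 (minus) for Lcn2, chr15:102004343-102004592 (minus) for Krt8, chr11:99438154-99438403 (minus) for Krt20 and chr11:46739973-46740222 (plus) for Havcr1. Capitals mark a motif match.
Lcn2: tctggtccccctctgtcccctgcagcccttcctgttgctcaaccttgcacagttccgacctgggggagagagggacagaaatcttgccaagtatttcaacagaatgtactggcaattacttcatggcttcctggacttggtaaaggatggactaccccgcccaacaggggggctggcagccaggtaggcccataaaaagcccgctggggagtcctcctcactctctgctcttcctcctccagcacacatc
Krt8: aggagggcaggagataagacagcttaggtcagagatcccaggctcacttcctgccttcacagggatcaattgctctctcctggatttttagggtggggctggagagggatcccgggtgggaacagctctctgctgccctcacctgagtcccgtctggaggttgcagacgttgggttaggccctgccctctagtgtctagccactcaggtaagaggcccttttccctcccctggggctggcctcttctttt
Krt20: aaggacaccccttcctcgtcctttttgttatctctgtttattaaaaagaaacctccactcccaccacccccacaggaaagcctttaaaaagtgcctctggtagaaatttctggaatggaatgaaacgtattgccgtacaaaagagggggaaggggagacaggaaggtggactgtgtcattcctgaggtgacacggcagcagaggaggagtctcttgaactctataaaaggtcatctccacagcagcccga
Havcr1: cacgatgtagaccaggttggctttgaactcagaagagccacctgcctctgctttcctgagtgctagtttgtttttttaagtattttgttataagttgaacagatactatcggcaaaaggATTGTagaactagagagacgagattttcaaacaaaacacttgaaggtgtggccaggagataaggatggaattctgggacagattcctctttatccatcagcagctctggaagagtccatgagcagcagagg
Both strands were searched for the NF-kB consensus, the STAT motif TTCNNNGAA, the AP-1 motif TGANTCA and the SOX core ACAAT. Of the 9 windows of these 6 genes, the first Havcr1 window held the SOX core on the minus strand (ATTGT, 131 to 127 bases before the start), and 0 held any of the other 3 motifs. Of all 32851 windows of the same length, 3.9% held the NF-kB consensus, 7.02% the STAT motif, 6.75% the AP-1 motif and 27.7% the SOX core. A window without a match says only that these letters are not in it.

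The second comparison, of FGF23 with vehicle in wild type, concerns the first hour after the hormone. Of the 9 markers limma called 0, and 0 had an unadjusted p below 0.05. Over all genes 0.0853% were called, 0.0802% higher and 0.00502% lower, and 15.4% had an unadjusted p below 0.05. With so few genes called, 0 of 9 does not set the markers apart, nor does it show that they were unchanged. The groups overlapped for all 9 markers, whereas 4.09% of genes lay wholly higher with FGF23 and 2.92% wholly lower. The unmoderated linear model and the other alternatives also called 0 of the markers.

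Lcn2 was at 6.46, 6.83, 7.22 and 6.68 with FGF23, against 7.08, 6.66, 6.82 and 6.29 with vehicle, and the difference was 0.08 (95% interval -0.61 to 0.78, adjusted p = 0.913). Vcam1 was at 7.74, 7.57, 7.93 and 7.72 with FGF23 and Krt8 at 9.68, 9.72, 9.67 and 9.57. The differences from vehicle were -0.03 for Vcam1 (interval -0.27 to 0.22) and -0.01 for Krt8 (interval -0.20 to 0.17). Krt20 was at 4.60, 4.67, 4.61 and 4.87 with FGF23, with a difference of 0.22 (interval -0.28 to 0.73). That interval also carries the KL null scatter (SD 0.68, against 0.13 with FGF23 and 0.20 with vehicle).

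The marker of smallest p was Clu, at 9.77, 9.81, 10.26 and 9.97 with FGF23, against 10.36, 10.14, 10.35 and 10.02 with vehicle (difference -0.26, interval -0.57 to 0.04, adjusted p = 0.382). Its 2 lowest values came from the 2 FGF23 arrays of low spread, and a fit that took array spread as covariate gave 0.05. Sox9 was at 6.08, 6.11, 5.52 and 5.85 with FGF23 (difference 0.16, adjusted p = 0.496), with its 2 highest values in the same arrays, and the covariate turned it to -0.08. The same covariate moved other markers further from 0, Lcn2 from 0.08 to 0.73 and Krt20 from 0.22 to 0.60, without a call. The part of array spread in these differences was not tested. Krt18, at 8.19, 8.09, 7.84 and 7.96 with FGF23, differed by 0.05 from vehicle (adjusted p = 0.89). Krt19, at 6.86, 6.62, 6.70 and 6.59, differed by -0.10 (adjusted p = 0.757). For Havcr1 the interval was -2.18 to 2.54, which excludes neither a several-fold rise nor a several-fold fall.

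KL null against wild type with FGF23 differs in genotype and treatment together and uses the same KL null arrays, so it is given as values. The markers called higher were again Lcn2, Vcam1, Krt8 and Krt20, 4 of 9, and 0 were called lower, where 6.72% of all genes were called higher and 5.25% lower. Lcn2 differed by 2.30 (adjusted p = 0.000625), Vcam1 by 0.86 (adjusted p = 0.000352) and Krt8 by 0.47 (adjusted p = 0.00332), and their groups did not overlap, as for 7.95% of genes in that direction, with 8.15% wholly lower. Krt20 differed by 0.76, with an adjusted p of 0.0482 that was above the threshold in 18 of 24 alternatives. For these comparisons together, 3 of the 9 markers had all 4 KL null arrays above all 8 wild-type arrays, as did 3.78% of all genes.

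Other genes of the injury response, from a list of genes known to rise in injured or incompletely repaired tubules, also differed in KL null. Of 44 measured, 12 rose, 1 fell and 31 did not pass, with a median log2 difference of 0.18 against 0.02 over all genes. Timp1, an inhibitor of matrix metalloproteinases, rose most clearly, at 6.04, 6.05, 6.26 and 6.17 in KL null against 4.81, 4.98, 4.89 and 4.89 in vehicle (2.36-fold, adjusted p = 2.78e-06). Cd44, a hyaluronan and osteopontin receptor, rose by 0.72 (adjusted p = 0.00517). Prom1, which encodes CD133 of tubule progenitor-like cells, fell by 0.81 (adjusted p = 5.89e-05). The other genes that rose, named after their values were seen, were Anxa1, Anxa2, Anxa3, Ccl2, Cp, Dcdc2a, Fga, Lgals3, Myof and Vim. The number that rose was 6 without KL null replicate 2 or WT vehicle replicate 1 or 2, and 5 without KL null replicate 3 or 4 or WT vehicle replicate 3.

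The list of inflammatory regulators covers the NF-kB, STAT3 and acute phase responses. It holds regulators known to act upstream of Lcn2 and Vcam1, and also targets and feedback inhibitors of these responses. Their part in the marker levels was not tested. Of 31 measured, 8 rose and 0 fell, with a median difference of 0.21. The 3 with the smallest p were Nfkbiz, an inducible IkB-family protein that is needed for Lcn2 induction in other cells (1.53-fold, adjusted p = 0.00162), the receptor gene Tlr2 (1.55-fold, adjusted p = 0.00377) and Tnfaip3, a feedback inhibitor of NF-kB (1.33-fold, adjusted p = 0.0104). Birc3, Nfkbia, Lrg1, Stat3 and the oncostatin M receptor gene Osmr also rose, named after their values were seen, Osmr by 1.02 on the log2 scale (adjusted p = 0.011). The count was 4 without KL null replicate 2 or 4 or WT vehicle replicate 3, and 5 without KL null replicate 3 or WT vehicle replicate 1.

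Receptors and partners of the marker proteins included 2 of 30 called higher and 4 called lower, with a median of -0.02. The number lower was 2 without KL null replicate 3 or 4 or WT vehicle replicate 1, and the number higher was 3 without KL null replicate 1 or 4. Those called higher were Cd44, given above, and Timd2. Lrp2, which encodes megalin, an endocytic receptor of the proximal tubule that takes up lipocalin-2, fell by 0.50 (adjusted p = 0.00175), and Gas6, a bridge between phosphatidylserine and TAM receptors, fell by 0.62 (adjusted p = 0.00186). The other two that fell, named after their values were seen, were Itgb8 (adjusted p = 0.0204) and Sox6 (adjusted p = 0.0329). Timd2, a relative of Havcr1 in the TIM family, named after its values were seen, was at 7.81, 6.75, 7.06 and 6.75 in KL null, against 6.46, 5.95, 6.11 and 5.65 in vehicle (difference 1.05, adjusted p = 0.00652). The lipocalin-2 receptor gene Slc22a17, likewise named after its values were seen, differed by -0.20 and did not pass (adjusted p = 0.207). Other keratins, desmosome and plakin genes had 0 higher and 1 lower of 27, with a median of -0.01. The gene that fell was Krt10 (by 0.39, adjusted p = 0.0476), and it was not called without KL null replicate 1, 3 or 4, WT FGF23 replicate 1 or 4, or WT vehicle replicate 1, 2 or 3. Without KL null replicate 1, 2 genes of this list were called higher. Krt7, a further simple-epithelial keratin, named after its values were seen, had a difference of 0.26 that did not pass (adjusted p = 0.102).

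**Figure D4:**
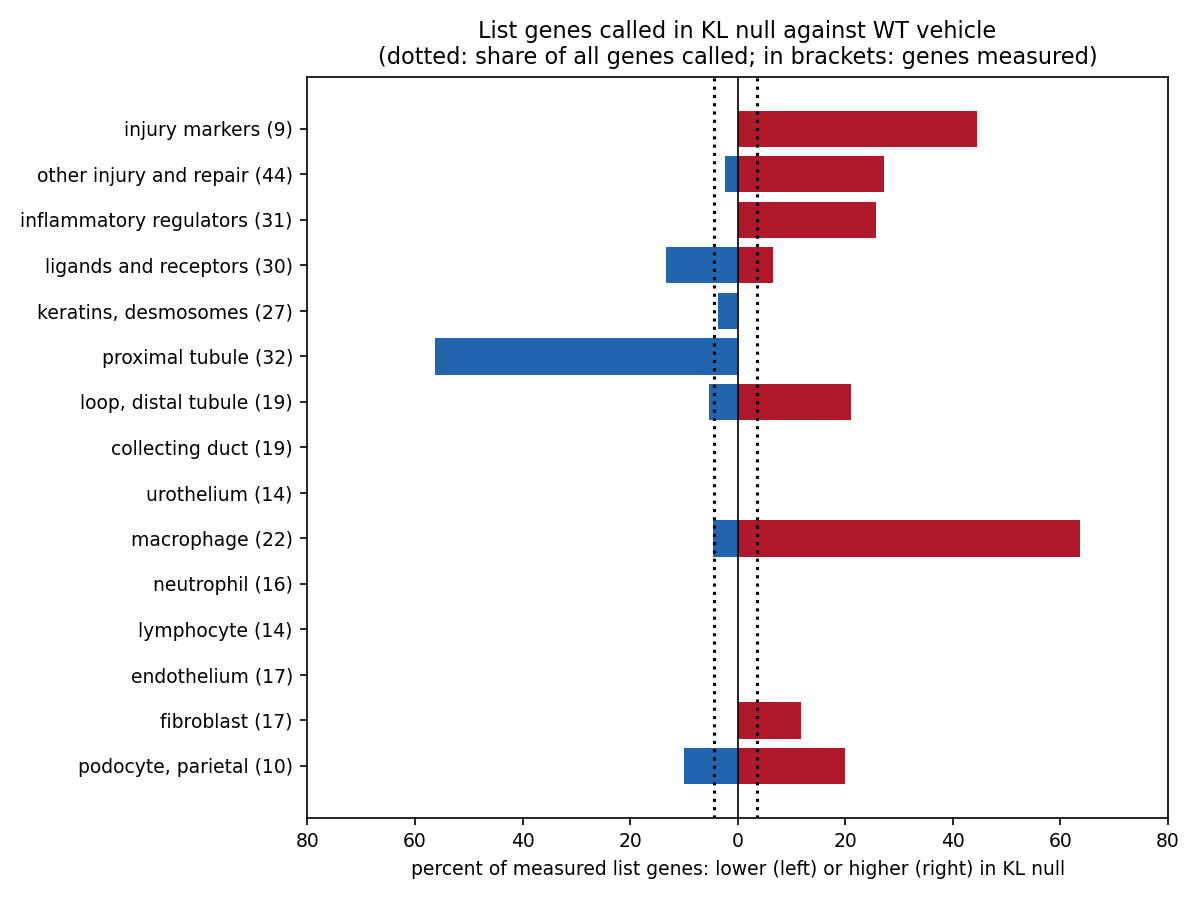
Share of the measured genes of each list (in percent, horizontal axis) that were called higher in KL null, to the right, or lower, to the left, against WT vehicle; dotted lines mark the shares over all genes, 3.58% higher and 4.44% lower. The longest bars are macrophage markers to the right, 14 of 22, and proximal tubule genes to the left, 18 of 32.

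Genes of the differentiated proximal tubule were lower in KL null, beside the markers that rose. Of 32 measured, 18 fell and 0 rose, with a median difference of -0.35. Kap, the androgen-regulated kidney protein, was at 12.01, 11.38, 11.91 and 11.48 in KL null, against 13.20, 13.30, 13.20 and 13.06 in vehicle (2.82-fold lower, adjusted p = 1.05e-05). Gatm of creatine synthesis was 1.99-fold lower (adjusted p = 3.55e-05) and the organic anion transporter gene Slc22a8 1.48-fold lower (adjusted p = 0.0016). The number that fell was 12 without WT vehicle replicate 3 and 13 to 19 without any other array. In bulk kidney RNA, fewer cells of a type and less RNA per cell cannot be told apart. Of 19 loop and distal tubule genes 4 rose, led by Trpv5 (1.96-fold, adjusted p = 1.05e-05), Trpm6 (1.41-fold, adjusted p = 0.00836) and Cldn16 (1.34-fold, adjusted p = 0.0211), and 1 fell. The fourth that rose was Tmem52b (adjusted p = 0.0439) and the one that fell was Slc12a3 (adjusted p = 0.0469), both named after their values were seen. The number that rose was 2 without KL null replicate 3 or WT vehicle replicate 3. The number that fell was 0 without KL null replicate 2, 3 or 4 or WT vehicle replicate 1, 3 or 4, and 2 without KL null replicate 1.

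Some markers are also expressed by cells other than injured tubule cells, and the levels of those cells' genes are given beside them. Macrophages can express Vcam1: of 22 macrophage genes 14 rose and 1 fell, with a median of 0.62. Mmp12 rose 8.85-fold (adjusted p = 8.75e-05), Ctss 2.98-fold (adjusted p = 0.000486) and Gpnmb 7.12-fold (adjusted p = 0.00107), whereas Csf1r, named after its values were seen, fell by 0.55 (adjusted p = 0.0321). Csf1r was not called without KL null replicate 1 or 3 or any 1 of the 4 WT vehicle arrays. The mean log2 level of the list was 6.95, 7.78, 7.54 and 7.55 in KL null replicates 1 to 4 and 6.41 to 6.78 in vehicle. Within KL null it was lowest in replicate 1, as Lcn2 and Vcam1 were. It was highest in replicate 2, whereas Lcn2 was highest in replicate 4 and Vcam1 in replicate 3. The count of macrophage genes that rose was lowest, at 9, without WT vehicle replicate 1, and was 10 without KL null replicate 2 or 3. The part of these cells in the marker levels was not tested.

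Neutrophils also carry Lcn2, and of 16 neutrophil genes 0 rose and 0 fell in KL null. Their mean level was 4.29 to 4.56 in KL null and 4.28 to 4.45 in vehicle, below the array medians of 6.15 to 6.29. At low signal RMA values understate fold changes, so a change in these genes could be missed. S100a8 averaged 3.93 in KL null and 3.88 in vehicle, S100a9 4.69 and 4.68, and Ly6g 4.48 and 4.51. These 3 genes, and Upk1a in the next list, were named after their values were seen. The part of these and the following cell types in the marker levels was not tested. The urothelium, which expresses Krt8, Krt18, Krt19 and Krt20 at rest, had 0 of 14 genes called, with Upk1a at 7.13 in KL null and 7.01 in vehicle. Collecting duct genes, whose cells express Krt8, Krt18 and Krt19, had 0 of 19 called and a median of -0.10. Endothelial genes, which can accompany Vcam1, had 0 of 17 called and a median of -0.14, and lymphocyte genes 0 of 14. Across all genes 8.01% were called in this comparison in either direction. In lists as short as these, 0 calls do not set the genes apart, nor show that they were unchanged. Of 17 fibroblast genes 2 rose, Dcn (1.81-fold, adjusted p = 0.0152) and Vim (1.48-fold, adjusted p = 0.0416), and 0 without KL null replicate 2 or 3. Of 10 podocyte and parietal genes 2 rose, Cldn1 (1.57-fold, adjusted p = 0.00349) and Cd9 (1.29-fold, adjusted p = 0.0303), and 1 fell, Podxl (by 0.37, adjusted p = 0.027), and 1 rose without KL null replicate 2, 3 or 4 or WT vehicle replicate 1, 3 or 4. Podxl was not called without KL null replicate 1, 2 or 3 or WT vehicle replicate 1 or 3.

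After FGF23, 0 genes of any of these 14 lists were called. The median differences were -0.05 for the other injury genes, 0.11 for the inflammatory regulators, -0.13 for proximal tubule genes and -0.09 for macrophage genes, against 0.04 over all genes. The list furthest from that was the neutrophil genes, with a median of 0.25 and 13 of 16 positive. Of these genes 5 lay wholly higher with FGF23, where 4.09% of all genes did. Their mean level was 4.63, 4.60, 4.42 and 4.44 with FGF23 and 4.28 to 4.45 with vehicle, and the 2 higher FGF23 values came from the arrays of lowest spread. With array spread as covariate the median was 0.05, and the part of array spread was not tested.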

How the data were processed

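Gene expression was measured on 12 whole-transcript arrays, 4 per group. The HBEGF injections that the protocol mentions were not analysed here. The deposited file holds the authors' log2 signal for each probe set. The submitters' processing notes name RMA and Partek 6.2. Background and probe-level settings are not given in the sources used here. RMA values understate fold changes at low signal, and no probe set could be set against its background, since scanner files were not used here. Precision is limited by having 4 arrays per group.

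Of 28853 probe sets, 21789 had 1 gene symbol in the platform annotation, 1621 had several and 5443 had none. The probe set of highest mean represented each of 19938 genes. A linear model with 3 group means (9 residual degrees of freedom) was fitted with lmFit and eBayes of limma 3.58.1 (R 4.3.3) and tested two-sided, with Benjamini-Hochberg adjustment over all genes and a threshold of 0.05. The fit was tested on simulated data. Figures were made with Python 3.11.15 and matplotlib 3.10.9.

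The markers, 14 other gene lists (312 of 332 entries measured) and the alternatives were chosen with earlier results of these data known. Named are all markers, Kl, Egr1, the called genes of each list with the 3 smallest p, and the 3 genes most like Lcn2 and Havcr1, without predicted genes, RIKEN clones, small RNAs and unnamed loci. Other genes are marked as named after their values were seen, apart from 3 kidney markers. Lists are described by counts and medians. Groups share replicate numbers. Deviations of same-numbered arrays from their group means correlated between -0.216 and 0.259 over 12 pairs. The correlation was above 0.1 in 7, including all 4 pairs of KL null with WT FGF23. The most correlated of the 4 arrays in another group bore the same number in 8 of 24 cases. Alternatives covered array removal, normalization, array spread, weights, moderation, probe-set choice and filtering.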

Additional observations from a re-analysis of the deposited data

Results flagged for a closer look

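Havcr1 held a far-off array in each wild-type group. In wild type with FGF23, replicate 4 was at 9.87 and the other 3 arrays were at 5.01 to 5.66, so that its gap to the next array was 0.866 of the range of the group. In wild type with vehicle, replicate 1 was at 10 and the other 3 arrays were at 4.59 to 5.17, a gap of 0.893 of the range. Both exceed Dixon's 95% critical value for 4 samples. Of 27 groups of arrays tested (9 markers in 3 groups), these 2 passed, and chance passes about 1 in 20.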

How the results depend on the processing

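The markers were refitted under 25 alternatives, 1 of them, without the 2 arrays of highest Havcr1, chosen after seeing the data. Lcn2, Vcam1 and Krt8 were called higher in KL null against both wild-type groups in all 25. The count of markers called higher ran from 3 to 5 against vehicle and from 3 to 6 against FGF23 when arrays were left out in turn; against FGF23 it was 7 with array quality weights. With a replicate block it was 4 and 4, and for FGF23 against vehicle 0, and each of the 27 marker differences stayed on its side of the threshold. Genes called in KL null against vehicle numbered 1598, 828 to 1728 with arrays left out in turn (1003 without KL null replicate 2, 856 without KL null replicate 3, 831 without WT vehicle replicate 1 and 828 without WT vehicle replicate 3), 2852 with array quality weights and 737 without the 2 arrays of highest Havcr1. Each array centred on its median split them 428 higher and 1239 lower, against 713 and 885. Against FGF23 they numbered 2386, 1218 to 2794 with arrays left out in turn (1218 without KL null replicate 3, 1369 without WT FGF23 replicate 2 and 1574 without WT FGF23 replicate 4), 1166 without the 4 arrays of lowest spread and 1291 without the 2 of highest Havcr1. For FGF23 against vehicle there were 17 calls, 4 to 14 with arrays left out in turn (14 without KL null replicate 4 and at most 11 without any other), 6 with the replicate block, 10 after a further quantile normalization, 6 with median centring, 11 with array spread as covariate, 9 without the 4 arrays of lowest spread, 4 without the 2 of highest Havcr1, 2 in the unmoderated model, 7 with only the 2 groups compared and 5 with all probe sets tested. The causes were not tested.

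Sign changes occurred only in differences that were not called. For FGF23 against vehicle, Vcam1 was 0.00 after quantile normalization, 0.12 with array spread as covariate and 0.06 without the 4 arrays of lowest spread; Krt8 was 0.05 after quantile normalization, 0.01 with the covariate and 0.06 without the 2 arrays of highest Havcr1; and Sox9 was -0.08 with the covariate and -0.04 without the 4 arrays. Clu was 0.05 with the covariate, Krt18 -0.03 with median centring and -0.07 without the 4 arrays, and Krt19 0.02 with the covariate and 0.02 without the 2 arrays. Without a change of sign, the covariate moved Lcn2 to 0.73 and Krt20 to 0.60. Leaving out arrays in turn gave -0.06 to 0.21 for Lcn2, -0.98 to 1.44 for Havcr1, -0.11 to 0.03 for Vcam1, -0.07 to 0.03 for Krt8 and -0.04 to 0.16 for Krt18. For KL null against FGF23, Havcr1 was -0.50 with the covariate, -0.53 without the 4 arrays, -0.42 with array quality weights and -0.07 to 1.55 with arrays left out in turn. The filter on genes of low mean removed Krt20, which then gave no value.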
